A study of Mus musculus with 48 samples.

Results

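The comparison set livers of mice given corticosterone and atglistatin together against livers of untreated mice. It held the 14 libraries labelled for both agents and the 10 labelled for vehicle without inhibitor, 24 of the 48 libraries of the series, and all measured genes. All mice were male C57BL6J. Combined-treatment mice drank corticosterone, the main glucocorticoid of rodents, at 100 ug/ml and ate chow into which atglistatin had been milled at 571 mg/kg, and both lasted 2 weeks. Atglistatin inhibits adipose triglyceride lipase (ATGL, encoded by Pnpla2), the enzyme that takes the first fatty acid from stored triglyceride. Untreated mice drank the 1% ethanol vehicle for the same 2 weeks and ate the same base chow without the drug. An ethanol content is recorded here for the vehicle groups only, so a difference in ethanol between the compared groups cannot be told apart. The remaining libraries, used only for values set beside these, came from 14 mice given corticosterone alone and 10 given atglistatin alone. The drug was given to the whole animal, so no value here separates ATGL of the liver from ATGL of adipose tissue. The labels give each mouse a fed glucose and an insulin value, and call 1 of the 14 combined-treatment mice diabetic (replicate 26). The question named for the comparison is which part of the liver profile stays away from the untreated state although fed glucose is near the untreated level.

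Corticosterone crosses the cell membrane and binds the glucocorticoid receptor, which enters the nucleus and switches genes on or off. In liver this receptor drives genes of glucose and amino acid metabolism, and in immune cells it represses inflammatory genes and can cause lymphocytes to die. Fatty acids released from adipose tissue by ATGL reach the liver, where they serve as fuel, as building blocks of triglyceride and as ligands of the nuclear receptor PPAR alpha. The tumour suppressor p53, which appears below as a separate group of targets, is a transcription factor that answers DNA damage and other stress by halting the cell cycle.

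Library totals ran from 7449109 to 17246286 counts in the untreated group and from 10832711 to 21175603 in the combined-treatment group. Albumin (Alb), the plasma protein that defines hepatocytes, lay between 49774 and 79230.0 CPM (median 70963) in untreated and between 62407 and 99005 CPM (median 75970.2) in combined-treatment livers, where CPM are counts scaled to a common library total, and its difference did not pass the test (log2 difference 0.14 ± 0.12, adjusted p = 0.35). Combined-treatment replicate 41 stood apart. Its root mean square log2 distance from the mean of the other libraries of its group was 0.744, against 0.301 to 0.421 for the other 13. It was the highest of the 14 in 2470 of 12688 genes and the lowest in 2397, against at most 1511 and 1202 for any other library. Its mouse had the lowest insulin of the group (2.19, others from 5.67), and several results that this library moves are given with and without it. Untreated replicates 9, 10 and 15 held Cpa1, a digestive enzyme of the acinar pancreas, above 20 CPM, whereas in the combined-treatment libraries it did not pass 8.25 CPM. The 10 measured acinar genes had a median log2 difference of -2.80, which became 1.53 without these 3 libraries, and several results that they move are given with and without them. The labels name no cage, day or batch, so p-values measure the spread between these samples. In bulk liver, fewer cells of a type and less RNA per cell cannot be told apart.

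The insulin difference between the groups passed the test and the glucose difference did not. Glucose, whose unit the labels do not give, averaged 120.9 ± 29.86 (SD, n = 14) under combined treatment, with a range of 95 to 212 and a median of 115. Untreated mice averaged 132.4 ± 10.85 (n = 10), with a range of 113 to 146 and a median of 134. The difference was -11.54 (2-sided permutation test, p = 0.28, adjusted over both measures 0.28). Of the 14 combined-treatment mice, 7 lay within the untreated glucose range, 6 below it and 1 above it, the mouse labelled diabetic at 212. Without that mouse the difference was -18.55 and passed (permutation adjusted p = 0.00437), and glucose in the other 13 averaged lower than in untreated mice. Insulin averaged 17.94 ± 11.98 (2.19 to 38.04, median 13.84) under combined treatment and 2.42 ± 0.705 (1.19 to 3.46, median 2.39) in untreated mice, a difference of 15.52 (permutation p = 0.00046, adjusted p = 0.00092). Insulin lay above the untreated range in 13 of 14 mice and within it in the mouse of replicate 41. Mice given corticosterone alone averaged 243.6 ± 79.93 for glucose and 31.67 ± 10.57 for insulin.

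The liver profiles of the combined-treatment group lay further from untreated liver than untreated livers lay from the mean of the others. Measured over all genes tested, the root mean square log2 distance of a combined-treatment library from the untreated mean ran from 0.603 to 0.881 (median 0.716). Untreated libraries, each measured against the mean of the other 9, ran from 0.353 to 0.585 (median 0.418), so the 2 ranges did not overlap, and without replicate 41 the combined range was 0.603 to 0.847. Libraries of corticosterone alone ran from 0.678 to 0.892 (median 0.731), and those of atglistatin alone from 0.357 to 0.602 (median 0.449). The treated groups were all measured against the same untreated mean.

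**Figure D1:**
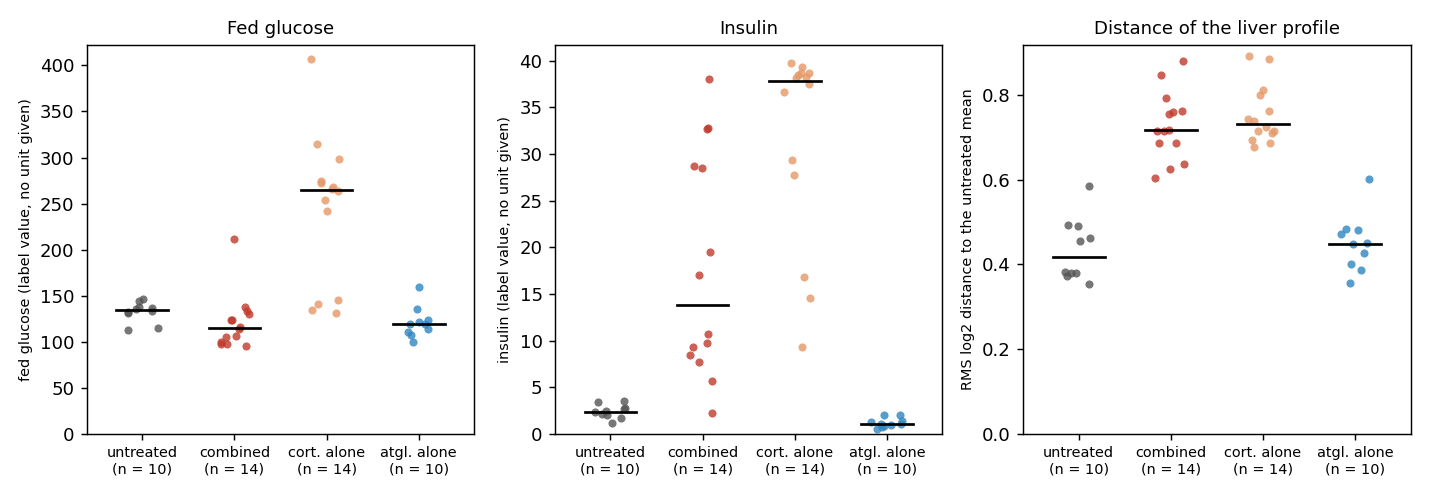
Fed glucose, insulin (label values without unit) and root mean square log2 distance of the liver profile from the untreated mean, 1 point per mouse in the 4 groups. Combined-treatment mice span 95 to 212 in glucose and overlap the untreated range of 113 to 146, while their distances of 0.603 to 0.881 lie above the untreated range of 0.353 to 0.585.

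The quasi-likelihood test of edgeR was run on 12688 genes, and 5533 (43.6%) passed an adjusted p of 0.05 (Benjamini-Hochberg), 2820 higher (22.2%) and 2713 lower (21.4%) under combined treatment, and are called changed below. At an unadjusted p under 0.05 there were 6421. The 95% interval lay within a 1.5-fold change in either direction for 7469 of the tested genes and for 1991 of those called. A change above 1.5-fold by edgeR's test against that size was called for 336 genes higher (2.65%) and 755 lower (5.95%). In 306 genes (2.41%) all 14 combined-treatment libraries lay above the untreated range, and in 332 (2.62%) all lay below it. Corticosterone alone against the same untreated libraries called 2858 genes higher (22.5%) and 2748 lower (21.7%), and atglistatin alone 186 higher (1.47%) and 211 lower (1.66%). Combined treatment against corticosterone alone called 658 higher (5.19%) and 821 lower (6.47%), and against atglistatin alone 2411 higher (19%) and 2241 lower (17.7%). These shares are the background for the counts of named gene groups that follow. The median log2 difference over all genes was 0.02 for combined treatment and 0.01 for corticosterone alone. Values after gene names are log2 differences between combined-treatment and untreated livers ± SE, unless another comparison is named. The comparisons of single treatments share the untreated libraries, so their values are set side by side only.

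**Figure D2:**
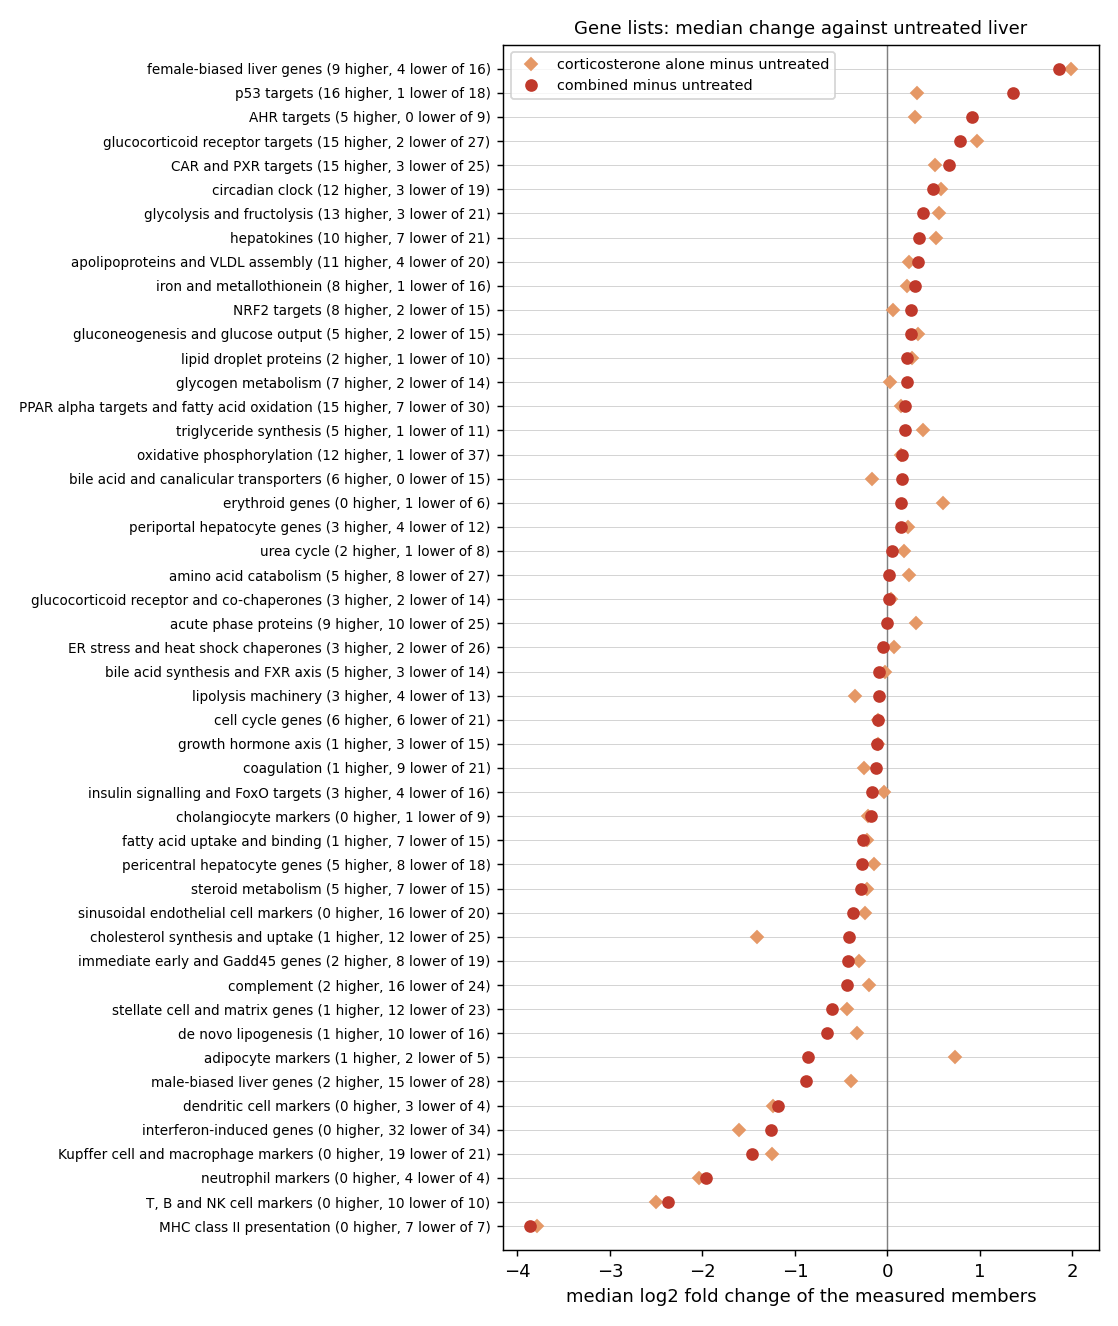
Median log2 difference from untreated liver of each gene list with at least 4 measured members, acinar pancreas left out, for combined treatment (circles) and corticosterone alone (diamonds), with the counts of members called higher and lower under combined treatment beside each name. MHC class II lies lowest among the lists tied to immune cells at -3.86, p53 targets lie at 1.36 against 0.32 with corticosterone alone, and cholesterol synthesis lies at -0.42 against -1.41.

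Glucocorticoid receptor targets were higher in the main. Of 27 measured, 15 were called higher, 2 lower and 10 neither, with a median of 0.79, where 22.2% of all genes were higher and 21.4% lower. Corticosterone alone called 19 higher and 1 lower (median 0.96). Fkbp5 (chromosome 17, 28399094 to 28517527, GRCm38), a co-chaperone that holds the receptor in a low-affinity state and is itself induced by it, lay between 5.58 and 17.2 CPM (median 8.06) in untreated and between 110.4 and 326 CPM (median 183) in combined-treatment livers. It rose by 4.33 ± 0.26 (adjusted p = 2.72e-18), and all 14 libraries lay above the untreated range. Against corticosterone alone Fkbp5 was lower by a log2 difference of -0.69 (adjusted p = 0.0141). The estrogen sulfotransferase Sult1e1 (chromosome 5, 87575969 to 87591594) ran from 0 to 0.341 CPM (median 0.0754) in untreated and from 1.85 to 518 CPM (median 16.5) in combined-treatment livers. Its change of 8.75 ± 1.17 (adjusted p = 2.00e-08) became 7.17 without replicate 41, which held the highest value, and rests on near-zero counts in the untreated group. All 14 libraries still exceeded every untreated one. Fam107a, an actin-associated protein that glucocorticoids induce in several tissues, rose by 5.87 ± 0.56 (adjusted p = 3.20e-12), or by 6.998 without untreated replicate 12. The lipid phosphatase Lpin1 rose by 2.02 ± 0.39 (adjusted p = 2.89e-05), the mTORC1 inhibitor Ddit4 by 1.89 ± 0.33 (adjusted p = 7.11e-06), and the tryptophan dioxygenase Tdo2 by 0.70 ± 0.11 (adjusted p = 2.11e-06). For the metallothionein Mt2, which binds zinc and copper, the change was 1.96 ± 0.51 (adjusted p = 0.0014), or 2.64 without untreated replicate 10, and it was lower than with corticosterone alone (-1.60, adjusted p = 0.0111). Igfbp1, a binding protein of insulin-like growth factors that insulin represses, was called lower (-1.76 ± 0.52, adjusted p = 0.00502), but this call was lost without untreated replicate 10 (-1.10, adjusted p = 0.0694), and the value was -2.91 without replicate 41. In the direct test of combined treatment against corticosterone alone, 5 of the 27 targets were called lower, beside 6.47% of all genes.

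Of 14 measured genes of the glucocorticoid receptor and its co-chaperones, 3 were called higher, 2 lower and 9 neither (median 0.02), a share below that of all genes. Single genes of hormone transport and action are given next. Serpina6, the corticosteroid-binding globulin that carries the hormone in blood, fell from a range of 69.0 to 140.4 CPM (median 103) to a range of 1.47 to 41.6 CPM (median 14.2) (-2.55 ± 0.26, adjusted p = 3.32e-11), with no overlap between the groups. The receptor gene Nr3c1 itself lay between 46.4 and 58.5 CPM (median 52.0) in untreated and between 27.98 and 48.3 CPM (median 42.3) in combined-treatment livers, a change of -0.34 ± 0.07 (adjusted p = 6.26e-05), with 12 of 14 libraries below the untreated range. Hsd11b1, the enzyme that regenerates active glucocorticoid inside cells, rose by 0.58 ± 0.12 (adjusted p = 7.56e-05), with 13 of 14 libraries above the untreated range and replicate 41 below it. With corticosterone alone these 3 genes stood at -2.12, -0.42 and 0.57.

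**Figure D3:**
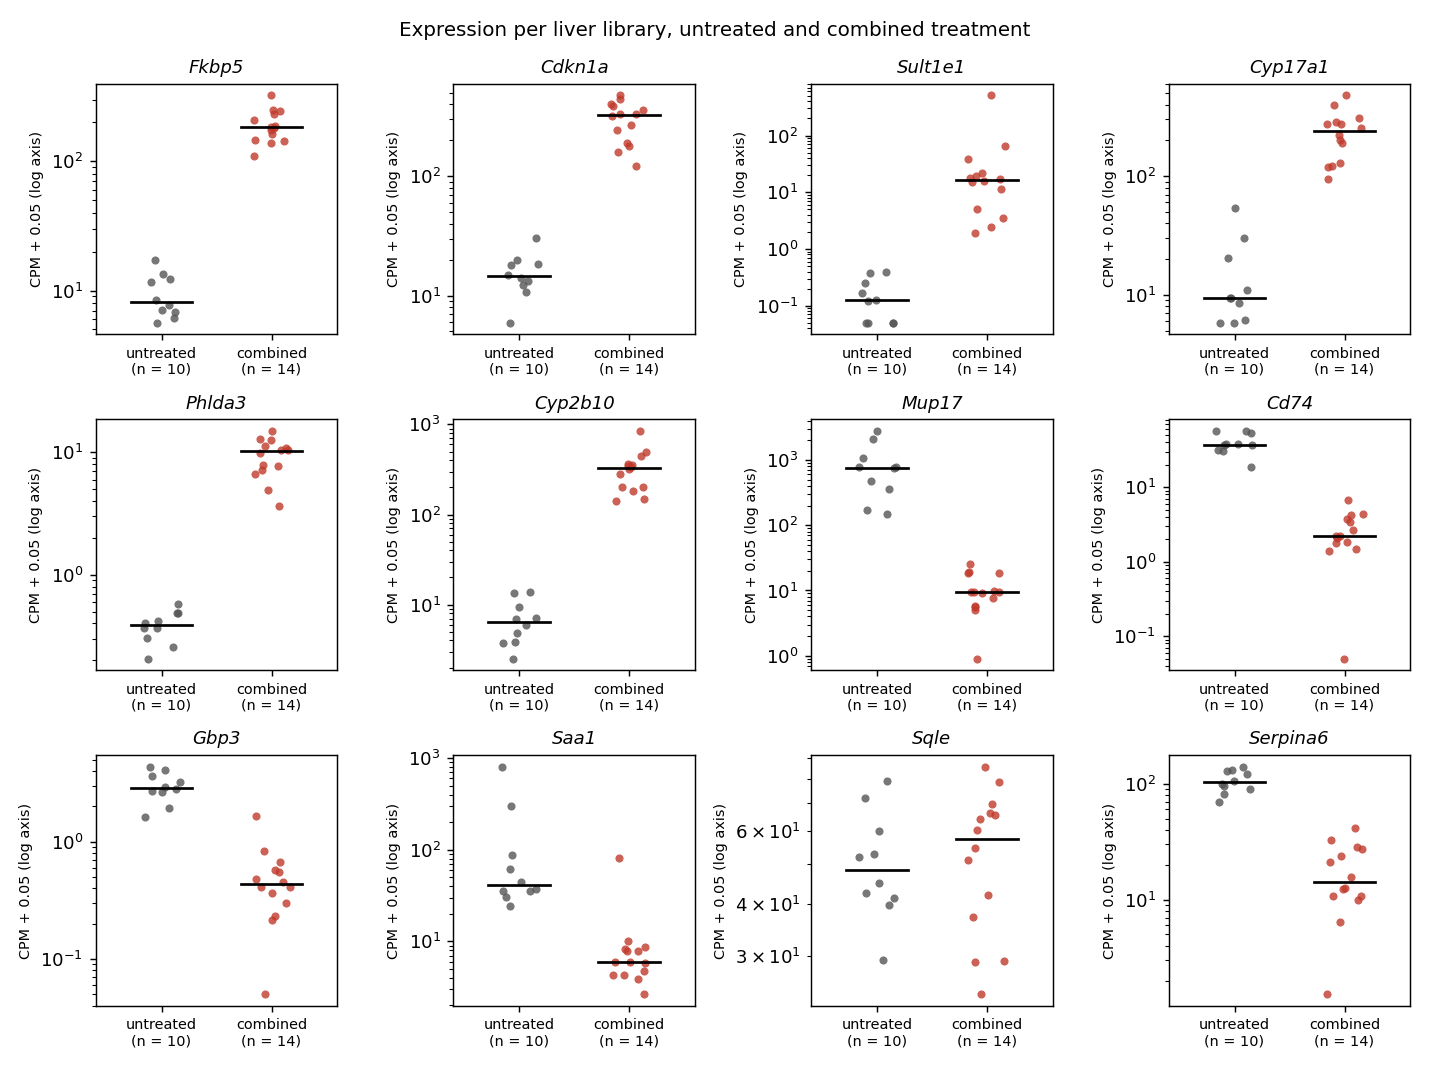
CPM plus 0.05 (log axis) of 12 genes in each untreated and combined-treatment library, with group medians as bars. Fkbp5 rises from a median of 8.06 to 183 CPM and Phlda3 from 0.335 to 10.16 CPM, whereas Sqle has medians of 48.4 and 57.5 CPM and the 2 groups overlap.

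Targets of p53 rose under combined treatment, and most were also higher than with corticosterone alone. Of 18 measured targets, 16 were called higher, 1 lower and 1 neither, with a median of 1.36, and in 10 of them all 14 libraries lay above the untreated range. With corticosterone alone 6 were higher and 2 lower (median 0.32), with atglistatin alone 3 higher and 1 lower, and the direct test of combined treatment against corticosterone alone called 12 higher, where 5.19% of all genes were. Phlda3 (chromosome 1, 135766119 to 135769136), which restrains the kinase AKT, lay between 0.156 and 0.531 CPM (median 0.335) in untreated and between 3.58 and 14.9 CPM (median 10.16) in combined-treatment livers. It rose by 4.76 ± 0.24 (adjusted p = 2.65e-21), against 0.66 (adjusted p = 0.0657) with corticosterone alone and 0.91 (adjusted p = 0.0901) with atglistatin alone. All 14 combined-treatment values exceeded the highest of the other 34 libraries (0.917 CPM). Mdm2 (chromosome 10, 117688875 to 117710758), the ubiquitin ligase that degrades p53 and is switched on by it, ran from 20.7 to 37.9 CPM (median 26.7) in untreated and from 55.9 to 109.9 CPM (median 77.9) in combined-treatment livers, a rise of 1.57 ± 0.10 (adjusted p = 8.90e-18), again without overlap. Cyclin G1 (Ccng1, chromosome 11, 40748552 to 40755311), another direct p53 target, ran from 13.9 to 25.6 CPM (median 16.9) in untreated and from 45.6 to 116 CPM (median 63.1) in combined-treatment livers and rose by 1.93 ± 0.14 (adjusted p = 2.90e-16). The receptors Eda2r and Tnfrsf10b were near 0 in untreated livers, at 0.0725 to 0.469 CPM (median 0.145) and 0 to 0.474 CPM (median 0.236), and reached 1.85 to 8.88 CPM (median 3.85) and 1.13 to 5.02 CPM (median 2.44). Their changes were 4.41 ± 0.32 (adjusted p = 6.11e-16) and 3.29 ± 0.33 (adjusted p = 1.55e-11). Low-count members such as Phlda3, Eda2r and Tnfrsf10b could pass the count filter through the combined-treatment group alone. Their direction was therefore partly set by the filter, and the counts of 16 higher and 10 without overlap are a description. Zmat3, an RNA-binding protein of the p53 response, rose by 1.08 ± 0.10 (adjusted p = 5.66e-12). Cdkn1a (chromosome 17, 29090976 to 29100727), the cell cycle inhibitor p21, stands in both this list and that of glucocorticoid receptor targets. It rose from a range of 5.87 to 30.5 CPM (median 14.4) to a range of 121 to 478 CPM (median 324), by 4.25 ± 0.29 (adjusted p = 1.49e-16), and against corticosterone alone it showed no called difference (0.10, adjusted p = 0.841). Btg2, an antiproliferative gene that is also an immediate early gene, was the 1 target called lower (-0.87 ± 0.31, adjusted p = 0.0192), and the call was lost without untreated replicate 3 (-0.75, adjusted p = 0.0533) or 10 (-0.62, adjusted p = 0.0974). Ercc5, a DNA repair nuclease, was not called (0.03 ± 0.07). Without the mouse labelled diabetic 15 targets were called higher, and without replicate 41 16 were.

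**Figure D4:**
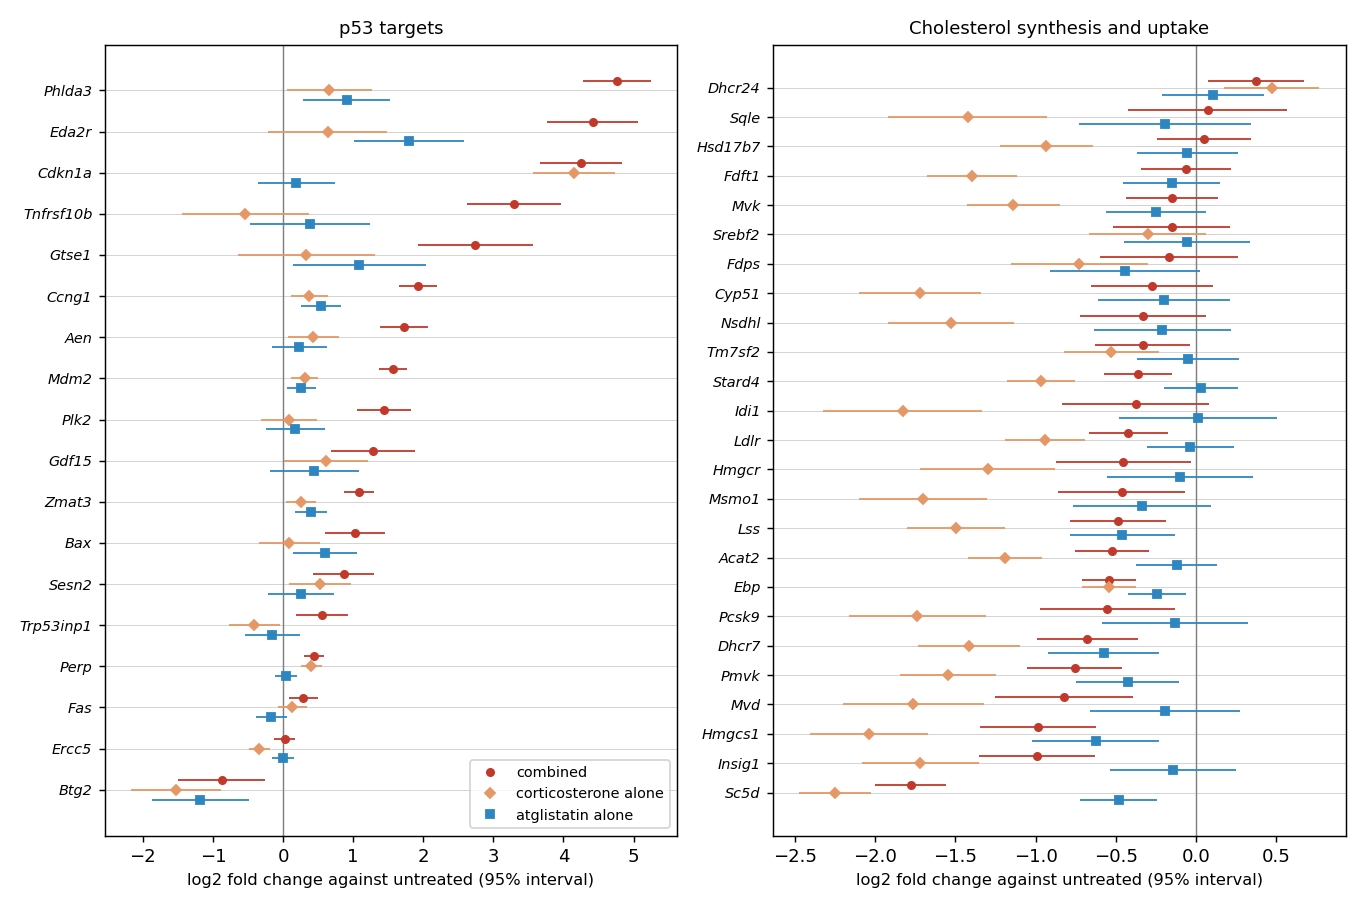
Log2 differences from untreated liver with 95% intervals for the p53 targets and for the genes of cholesterol synthesis and uptake, under combined treatment, corticosterone alone and atglistatin alone. Phlda3 stands at 4.76 under combined treatment and 0.66 with corticosterone alone, and Sqle at 0.08 and -1.42.

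Genes of cholesterol synthesis lay nearer to the untreated level than with corticosterone alone. Of 25 measured genes of the pathway and of cholesterol uptake, 12 were called lower, 1 higher and 12 neither (median -0.42), whereas corticosterone alone called 23 lower and 1 higher (median -1.41). The direct test against corticosterone alone called 20 of the 25 higher. Against untreated, combined treatment called 10 lower and 0 higher without the Cpa1-rich libraries, and 13 lower and 0 higher without replicate 41. The largest decrease among the 12 was that of Sc5d (chromosome 9, 42251595 to 42264256), which makes a late sterol intermediate. It measured 368 to 702 CPM (median 567) in untreated and 118 to 217 CPM (median 169) in combined-treatment livers, without overlap (-1.78 ± 0.11, adjusted p = 4.70e-18). Hmgcs1 (chromosome 13, 119690379 to 119708260), which makes the precursor of mevalonate, ran from 342 to 675 CPM (median 516) in untreated and from 125 to 370.3 CPM (median 266) in combined-treatment livers, -0.99 ± 0.18 (adjusted p = 1.29e-05), against -2.04 with corticosterone alone. Insig1, the sterol sensor that retains SREBP proteins in the endoplasmic reticulum, fell (-0.99 ± 0.18, adjusted p = 1.21e-05). Squalene epoxidase (Sqle, chromosome 15, 59315077 to 59331192) lay between 29.3 and 79.3 CPM (median 48.4) in untreated and between 24.2 and 85.8 CPM (median 57.5) in combined-treatment livers, and the groups overlapped. Its difference was 0.08 ± 0.25 (adjusted p = 0.83) with a 95% interval of -0.42 to 0.57, beside -1.42 (adjusted p = 5.05e-06) with corticosterone alone. Squalene synthase (Fdft1) at -0.06 ± 0.14 (adjusted p = 0.759) (interval -0.34 to 0.22) and mevalonate kinase (Mvk) at -0.15 ± 0.14 (adjusted p = 0.429) (interval -0.43 to 0.14) were likewise not called, beside -1.39 and -1.14 with corticosterone alone.

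Across the whole table few genes strongly changed by corticosterone alone were shown to lie close to the untreated level. Of 449 genes that corticosterone alone changed at least 2-fold (named, with a mean of at least 5 CPM), 6 had a 95% interval within 1.5-fold of untreated under combined treatment: Sqle, Fdft1, Mvk, Gclc, Rpia and Gm15638. These 6 were picked by that rule, so their values are a description. Gclc, the catalytic subunit for glutathione synthesis, lay between 271 and 419 CPM (median 301) in untreated and between 228 and 387 CPM (median 271) in combined-treatment livers, and between 84.0 and 194 CPM (median 134) with corticosterone alone. Rpia, an isomerase of the pentose phosphate pathway, was the only one of the 6 that corticosterone alone raised (1.10, against 0.14 under combined treatment). Gm15638, a gene model without a named function, stood at -1.42 and 0.07.

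Most genes that make fatty acids fell. Of 16 measured genes of de novo lipogenesis, 10 were called lower, 1 higher and 5 neither (median -0.65), beside 8 lower and 3 higher (median -0.33) for corticosterone alone. Scd1 (chromosome 19, 44394455 to 44407879), which puts the double bond into stearate, ran from 1974 to 4370.1 CPM (median 2614) in untreated and from 105 to 1414 CPM (median 735) in combined-treatment livers, a fall of -1.93 ± 0.26 (adjusted p = 2.08e-08) without overlap. Acss2, which activates acetate, fell (-1.54 ± 0.16, adjusted p = 3.21e-11), as did Acly, which splits citrate into acetyl-CoA (-1.07 ± 0.16, adjusted p = 2.68e-07). Fatty acid synthase (Fasn) lay between 204 and 453 CPM (median 297) in untreated and between 112 and 354 CPM (median 182) in combined-treatment livers. It fell (-0.61 ± 0.19, adjusted p = 0.00715), where corticosterone alone gave 0.09 (adjusted p = 0.75), and the direct test against corticosterone alone passed (-0.70, adjusted p = 0.00474). Their regulator Srebf1 stood at -0.53 ± 0.22 (adjusted p = 0.0441), a call that was lost without replicate 41 (-0.47, adjusted p = 0.0679), without the diabetic mouse (-0.50, adjusted p = 0.06) and in other fits that left out 1 library, untreated ones included. Of 15 genes of fatty acid uptake and binding, 7 were lower and 1 higher. Fabp5, a binding protein of fatty acids, fell furthest (-3.04 ± 0.34, adjusted p = 2.91e-10), from a range of 8.39 to 65.5 CPM (median 15.4) to a range of 1.29 to 6.63 CPM (median 2.84).

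Genes of lipid storage and release were called in both directions. The share called was 53.8% for lipolysis genes and 30% for lipid droplet proteins, beside 43.6% of all genes. Of 13 lipolysis genes 3 were higher and 4 lower (2 higher without replicate 41), and of 10 lipid droplet proteins 2 were higher and 1 lower (4 lower without replicate 41). Pnpla2 (chromosome 7, 141455198 to 141460743), which encodes the drug's target ATGL, lay between 24.01 and 48.3 CPM (median 36.2) in untreated and between 36.9 and 102 CPM (median 44.0) in combined-treatment livers. Its call (0.37 ± 0.15, adjusted p = 0.0372) was lost without replicate 41 (0.23, adjusted p = 0.131), without combined-treatment replicate 23 and without each untreated library in turn except replicates 12 and 16. The ATGL coactivator Abhd5 rose by 0.52 ± 0.10 (adjusted p = 3.23e-05), and the ATGL inhibitor G0s2 was not called (0.40 ± 0.31, adjusted p = 0.312). Plin5, a droplet protein of oxidative tissues that binds ATGL and Abhd5, ran from 24.7 to 94.8 CPM (median 45.6) in untreated and from 85.1 to 179 CPM (median 130.2) in combined-treatment livers and rose by 1.41 ± 0.15 (adjusted p = 7.13e-11), less than with corticosterone alone (-0.57, adjusted p = 0.00174). Plin2, the main droplet coat protein of hepatocytes, was not called (-0.22 ± 0.13, adjusted p = 0.155), and was called lower without replicate 41 (-0.34, adjusted p = 0.00942). Of 20 genes of apolipoproteins and VLDL assembly, 11 were higher and 4 lower (median 0.34). Mttp, which loads lipid onto apolipoprotein B, rose from a range of 88.2 to 148 CPM (median 109) to a range of 151 to 234 CPM (median 196), by 0.82 ± 0.10 (adjusted p = 2.16e-09), without overlap. Apoa4, a lipoprotein component that follows hepatic fat, rose by 3.42 ± 0.43 (adjusted p = 4.77e-09), or by 2.55 without replicate 41, which held 4653 CPM. Of 30 PPAR alpha targets and genes of fatty acid oxidation, 15 were higher and 7 lower (median 0.19). The omega-hydroxylase Cyp4a14 rose by 2.64 ± 0.38 (adjusted p = 1.74e-07) and the hormone Fgf21 by 4.02 ± 0.68 (adjusted p = 2.80e-06), or by 3.12 without replicate 41. Cpt1a, which admits fatty acids to mitochondria, was not called (-0.04 ± 0.12, adjusted p = 0.805), nor was the receptor gene Ppara (-0.24 ± 0.13, adjusted p = 0.145).

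Genes that use sugar were higher in the main, and genes that release glucose were mixed. Of 21 genes of glycolysis and fructolysis, 13 were called higher and 3 lower (median 0.39), beside 12 and 3 with corticosterone alone. Tkfc (chromosome 19, 10587791 to 10605654), which feeds fructose carbon into glycolysis as a triose kinase, ran from 161 to 255 CPM (median 191) in untreated and from 355 to 895 CPM (median 508) in combined-treatment livers, a rise of 1.5 ± 0.17 (adjusted p = 4.62e-10) without overlap. Ketohexokinase (Khk), which starts fructose breakdown, rose by 1.21 ± 0.16 (adjusted p = 2.75e-08). Of 15 genes of gluconeogenesis and glucose output, 5 were higher and 2 lower (1 lower without the Cpa1-rich libraries). Corticosterone alone called 8 higher and 0 lower, and the direct test against corticosterone alone called 7 lower. Slc37a4 (chromosome 9, 44396852 to 44402968), the transporter that brings glucose 6-phosphate to the phosphatase, rose from a range of 48.2 to 126 CPM (median 74.9) to a range of 169 to 277 CPM (median 204), by 1.45 ± 0.13 (adjusted p = 1.49e-12). The phosphatase G6pc (chromosome 11, 101367561 to 101377903), the last step of glucose release, went the other way: it lay between 241 and 829 CPM (median 539) in untreated and between 78.6 and 483 CPM (median 342) in combined-treatment livers, -0.72 ± 0.23 (adjusted p = 0.00911), with 2 libraries below the untreated range. Against corticosterone alone G6pc differed by -1.05 (adjusted p = 0.000429). Pck1, the rate-limiting step from oxaloacetate, was not called (0.40 ± 0.26, adjusted p = 0.208, interval -0.11 to 0.91). Glycogen genes were 7 higher and 2 lower of 14. Ppp1r3g, a glycogen-targeting subunit of protein phosphatase 1, fell (-3.92 ± 0.55, adjusted p = 4.13e-08) to at most 0.262 CPM.

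Genes of insulin signalling were called at about the rate of all genes. Of 16 measured, 3 were higher, 4 lower and 9 neither (median -0.17), beside 43.6% called over all genes. Irs2 (chromosome 8, 10984681 to 11008458), an insulin receptor substrate whose gene insulin represses, lay between 6.42 and 40.2 CPM (median 23.03) in untreated and between 6.84 and 19.7 CPM (median 11.02) in combined-treatment livers. It fell (-0.98 ± 0.24, adjusted p = 0.000832), where corticosterone alone gave -0.12 (adjusted p = 0.719), and the direct test between those treatments passed (-0.86, adjusted p = 0.00689). The adaptor Grb10 fell (-0.98 ± 0.21, adjusted p = 0.000108). The receptor gene Insr was not called (-0.17 ± 0.10, adjusted p = 0.139), and its interval of -0.37 to 0.02 bounds the change. Igf1, the hormone that growth hormone draws from liver, stood at 0.02 ± 0.09 (adjusted p = 0.872) with an interval of -0.17 to 0.21.

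Several genes of amino acid catabolism were lower than with corticosterone alone. Corticosterone alone called 12 of 27 genes higher and 5 lower, combined treatment 5 higher (3 without the Cpa1-rich libraries) and 8 lower, and the direct test between them called 9 lower. Oat (chromosome 7, 132557478 to 132576398), an ornithine aminotransferase expressed near the central vein, fell from a range of 301 to 544 CPM (median 359) to a range of 41.7 to 176 CPM (median 119.7) (-1.80 ± 0.15, adjusted p = 1.07e-13), without overlap, and was lower than with corticosterone alone (-1.13, adjusted p = 5.10e-08). Agxt, which removes glyoxylate, fell (-1.39 ± 0.16, adjusted p = 8.01e-10). Of 8 urea cycle genes 2 were higher and 1 lower.

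Genes of drug and xenobiotic metabolism were higher in the main. Of 25 measured targets of the nuclear receptors CAR and PXR, 15 were higher and 3 lower (median 0.67), and in 9 all 14 libraries lay above the untreated range. Without the Cpa1-rich libraries 12 were higher. Counts of the Cyp2b, Cyp2c, Cyp3a and Gstm families are uncertain because near-identical copies may share reads. Cyp2b10 (chromosome 7, 25897620 to 25926624), the classic CAR target, ran from 2.47 to 13.8 CPM (median 6.37) in untreated and from 139.6 to 848 CPM (median 332) in combined-treatment livers, by 5.55 ± 0.39 (adjusted p = 1.88e-16). The glutathione transferase Gstm3 ran from 36.5 to 76.8 CPM (median 58.9) in untreated and from 369.5 to 2728 CPM (median 617) in combined-treatment livers, by 3.75 ± 0.31 (adjusted p = 6.78e-14), beside 1.87 with corticosterone and 1.62 with atglistatin alone. It passed against both single treatments (1.88, adjusted p = 2.49e-07, and 2.13, adjusted p = 5.40e-08). Of 9 measured targets of the aryl hydrocarbon receptor (AHR) 5 were higher and 0 lower (median 0.91), which was also the count with atglistatin alone. Cyp1a2 (chromosome 9, 57676937 to 57683703), a hepatocyte monooxygenase, lay between 403 and 1222 CPM (median 678) in untreated and between 429 and 1771 CPM (median 1507) in combined-treatment livers. It rose by 0.91 ± 0.20 (adjusted p = 0.000236), beside -0.71 with corticosterone and 1.41 with atglistatin alone, and 11 of 14 libraries lay above the untreated range. Cyp1a1 stood at 0.967 to 3.82 CPM (median 1.88) against 0 to 0.759 CPM (median 0.175), 3.03 ± 0.34 (adjusted p = 2.22e-10). Among the 5, Cyp2a4 stood at 2.17 ± 0.93 (adjusted p = 0.0482) and lost its call without replicate 41 (1.66, adjusted p = 0.141) and in other fits that left out 1 library. Of 15 targets of NRF2, the factor of the oxidative stress response, 8 were higher and 2 lower (1 lower without the Cpa1-rich libraries). Nqo1, a quinone reductase on both lists, rose by 1.38 ± 0.18 (adjusted p = 1.74e-08), and the gene of NRF2 itself, Nfe2l2, by 0.95 ± 0.11 (adjusted p = 2.10e-10), both without overlap.

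Of 28 male-biased genes 15 were lower, 2 higher and 11 neither (median -0.88) in these male animals, or 11 lower and 3 higher (median -0.59) without the Cpa1-rich libraries. Corticosterone alone called 12 lower and 3 higher (median -0.39), and atglistatin alone 8 lower (median -0.87). The direct test against corticosterone alone called 8 lower. Mup17 (chromosome 4, 61591929 to 61595871), 1 of the major urinary proteins that carry male scents, fell from a range of 146 to 2783 CPM (median 753) to a range of 0.857 to 25.02 CPM (median 9.44) (-6.43 ± 0.58, adjusted p = 7.57e-13), without overlap. Mup1 (-3.49 ± 0.42, adjusted p = 2.59e-09) and Mup11 (-4.04 ± 0.61, adjusted p = 3.68e-07) also fell, though reads of Mup copies may be shared. Mup20, known as darcin, was called higher (1.48 ± 0.27, adjusted p = 1.50e-05) and with the glutathione transferase Gstp1 (0.91 ± 0.19, adjusted p = 0.00014) made up the 2 higher members. Of 16 female-biased genes 9 were higher and 4 lower (median 1.86), beside 10 and 4 with corticosterone alone. The steroid hydroxylase Cyp17a1 rose from a range of 5.78 to 54.3 CPM (median 9.28) to a range of 93.8 to 481 CPM (median 240.0), by 3.91 ± 0.49 (adjusted p = 5.66e-09). Of 15 genes of the growth hormone axis 1 was higher and 3 lower. The receptor Ghr fell (-0.83 ± 0.10, adjusted p = 4.25e-09), as did Stat5b, which carries its signal to sex-biased genes (-0.47 ± 0.10, adjusted p = 0.000236).

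Immune cell genes were far below the untreated level. Of 11 listed genes of MHC class II antigen presentation, which is made by dendritic cells, macrophages and B cells, 7 were measured. All 7 were called lower (median -3.86, beside -3.79 with corticosterone alone). Low-count members could pass the count filter only through the groups where they are high, so the count of 7 is a description. DESeq2, run without that filter, called 9 lower. H2-Aa (chromosome 17, 34282744 to 34287823), the class II alpha chain, fell from a range of 52.9 to 137 CPM (median 78.7) to a range of 0.490 to 13.5 CPM (median 4.89) (-4.05 ± 0.29, adjusted p = 3.69e-16). H2-Ab1 (chromosome 17, 34257689 to 34269419), its partner, fell from a range of 29.02 to 82.5 CPM (median 42.1) to a range of 0.857 to 5.90 CPM (median 2.34) (-4.01 ± 0.24, adjusted p = 1.03e-18). H2-Eb1 (-3.86 ± 0.26, adjusted p = 1.25e-16) and the invariant chain Cd74 (-3.88 ± 0.27, adjusted p = 2.86e-16) fell with them, and in all 4 no combined-treatment library reached the untreated range. Of 28 listed markers of T, B and NK cells, 10 passed the count filter, and all 10 were lower (median -2.37). Low-count members such as Ighd and Cd79b could pass that filter without counts in the combined-treatment group. Their direction was therefore partly set by the filter, and the count of 10 is a description. Ptprc, the leukocyte antigen CD45, ran from 5.31 to 13.7 CPM (median 8.46) in untreated and from 0.500 to 3.36 CPM (median 1.75) in combined-treatment livers (-2.27 ± 0.17, adjusted p = 4.06e-15). The B cell genes Ighd and Cd79b ran from 0.371 to 1.72 CPM (median 0.857) and 0.156 to 1.38 CPM (median 0.934) in untreated livers, and under combined treatment did not pass 0.161 and 0.151 CPM, with many libraries at 0. Summed over the measured members, lymphocyte markers ran from 23.61 to 61.05 CPM in untreated and from 3.604 to 22.05 CPM in combined-treatment livers.

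Macrophage genes were lower, and their sum was high in 1 library. Of 21 Kupffer cell and macrophage markers 19 were lower (median -1.46, or -1.62 without replicate 41), beside 19 lower (median -1.25) with corticosterone alone. Their sum ran from 358.0 to 628.3 CPM (median 470.4) in untreated and from 107.1 to 575.5 CPM (median 153.2) in combined-treatment livers. Replicate 41 held the 575.5, and the other 13 did not pass 237.0, below every untreated library. In 8 of the 21 markers all 14 libraries, replicate 41 included, lay below the untreated range, so its high sum was not shared by all markers. Clec4f (chromosome 6, 83644542 to 83656187), a lectin of Kupffer cells, the resident macrophages of liver, ran from 30.6 to 45 CPM (median 37.4) in untreated and from 8.83 to 28.3 CPM (median 12.4) in combined-treatment livers (-1.46 ± 0.12, adjusted p = 5.12e-14). Timd4, a receptor of embryonically seeded Kupffer cells, fell (-1.91 ± 0.17, adjusted p = 4.00e-13), as did Aif1, a cytoskeletal protein of macrophages (-2.29 ± 0.19, adjusted p = 3.45e-14), both without overlap. Marco, a scavenger receptor, and Cd163, the haemoglobin receptor, were the 2 markers not called (0.92 ± 0.45, adjusted p = 0.0903, and -0.22 ± 0.17, adjusted p = 0.32). Of 14 listed neutrophil markers 4 were measured, and all 4 were lower. Of these, S100a8 lost its call without the Cpa1-rich libraries (-0.80, adjusted p = 0.146). Of 10 listed dendritic cell markers 4 were measured, and 3 were lower. The limit that the count filter sets for lymphocyte markers holds for these 2 lists as well. Most genes of the cells that line the sinusoids were lower too. Of 20 sinusoidal endothelial markers 16 were lower (median -0.37), with summed values of 634.2 to 835.9 CPM (median 716.5) in untreated and 507.8 to 637.0 CPM (median 548.7) in combined-treatment livers. The mannose receptor Mrc1 fell (-0.81 ± 0.09, adjusted p = 2.93e-10). Of 23 stellate cell and matrix genes 12 were lower and 1, the proteoglycan Lum, higher (median -0.60), with the highest combined-treatment sum (666.5 CPM) in replicate 41. The collagen Col3a1 fell (-2.02 ± 0.17, adjusted p = 9.18e-14), from a range of 11.4 to 27.4 CPM (median 16.7) to a range of 2.14 to 10.04 CPM (median 3.46).

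**Figure D5:**
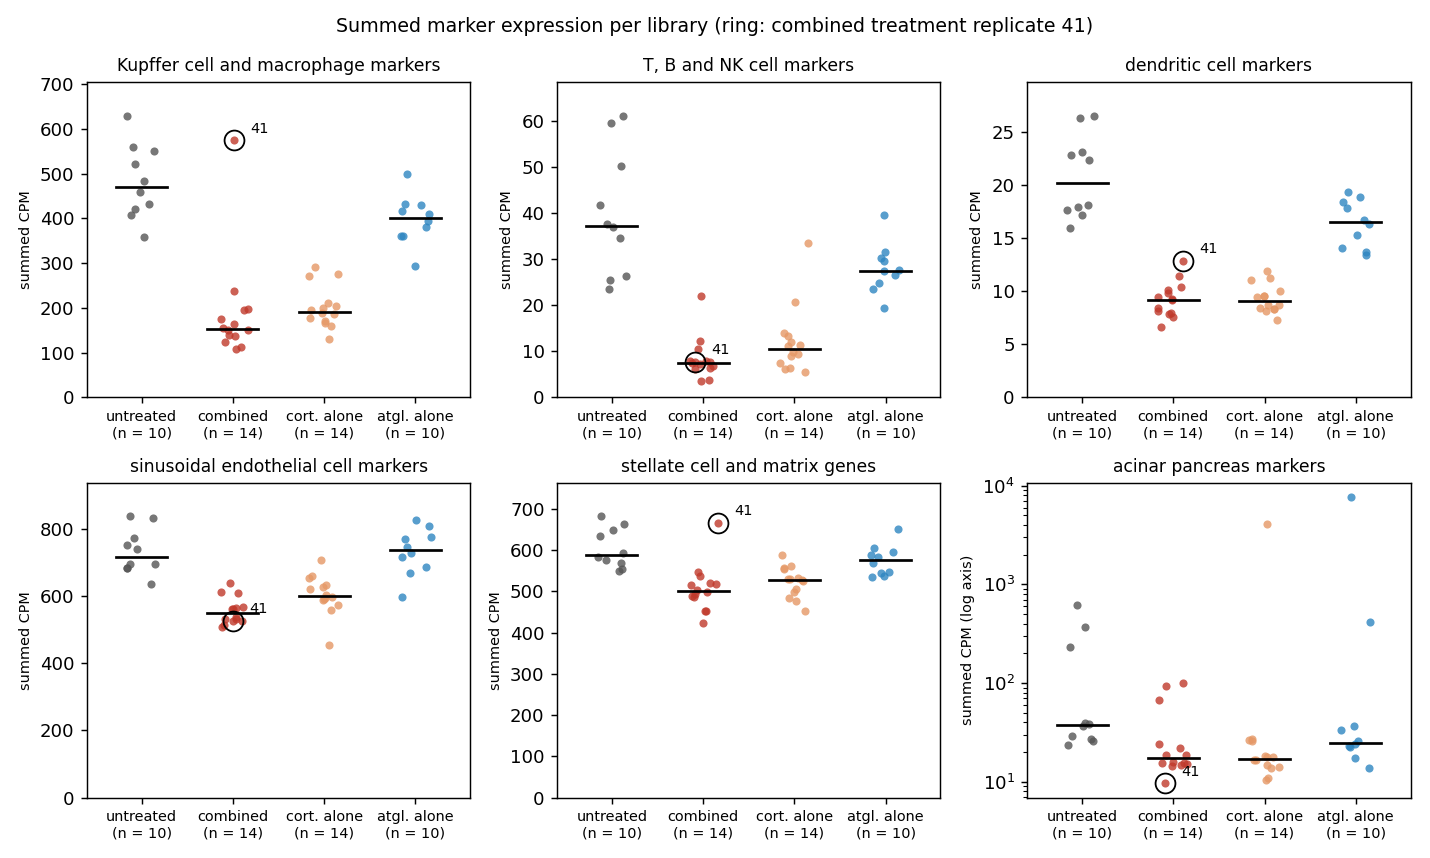
Summed CPM of marker genes of liver cell types (acinar pancreas on a log axis) in each library of the 4 groups, with group medians as bars and combined-treatment replicate 41 ringed. Macrophage sums run from 107.1 to 237 CPM in 13 combined-treatment libraries and reach 575.5 CPM in replicate 41, against 358 to 628.3 CPM in untreated livers.

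Interferon-induced genes were lower as a group. Of 41 listed, 34 were measured. Of these, 32 were called lower and 2 (Usp18 and Ifi27l2b) neither, with a median of -1.26, beside 32 lower (median -1.60) with corticosterone alone. The limit that the count filter sets for lymphocyte markers holds for any low-count member here as well. Replicate 41 held the highest value of its group in the genes given next, and without it all 34 were lower (median -1.72). Ifit1 (chromosome 19, 34640871 to 34650009), which binds foreign RNA, lay between 8.21 and 25.98 CPM (median 17.7) in untreated and between 1.239 and 24.4 CPM (median 2.41) in combined-treatment livers, and its change of -2.14 ± 0.32 (adjusted p = 2.45e-07) became -2.90 without that library. The ubiquitin-like Isg15 ran from 13.1 to 26.1 CPM (median 15.7) in untreated and from 2.92 to 25.7 CPM (median 4.09) in combined-treatment livers, -1.55 ± 0.23 (adjusted p = 3.16e-07). Gbp3 (chromosome 3, 142560026 to 142573209), a GTPase induced by interferon gamma, fell (-2.64 ± 0.26, adjusted p = 6.19e-12), as did the chemokine Cxcl9 (-3.70 ± 0.30, adjusted p = 2.52e-14). In Ifit1, Isg15 and Gbp3, 13 of 14 libraries lay below the untreated range, the exception being replicate 41, and in Cxcl9 all 14 did. The macrophage and lymphocyte sums given above were lower in the same group, and replicate 41 held 575.5 CPM of the first and 7.775 CPM of the second. The part of those cells in the interferon result was not tested.

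Promoter sequences are shown for genes that fell together, with the motif by which each family is best known in capitals. They come from RefSeq on GRCm38.p6, run 5′ to 3′ toward the start of the gene, and stop where the GENCODE M21 gene begins, while the search covered 250 bases before and 50 after each RefSeq start. For interferon genes the motif is the interferon-stimulated response element, searched as GAAANNGAAA on both strands, and matches may overlap (Isg15 has 3 that do, Gbp3 has 2). It occurs in 14 of the 27 measured interferon genes with an entry, and in 1079 of all 27025 genes with an entry (3.99%). A gene was counted if any of its windows of 300 bases held a match. Among those without an entry are Usp18, Gbp4, Iigp1, Ifi27l2b, Ifi27l2a and Zbp1. The windows are chr3:142559794-142560025 (plus strand) for Gbp3, chr19:34640639-34640870 (plus) for Ifit1 and chr4:156200819-156201068 (minus) for Isg15.
Gbp3: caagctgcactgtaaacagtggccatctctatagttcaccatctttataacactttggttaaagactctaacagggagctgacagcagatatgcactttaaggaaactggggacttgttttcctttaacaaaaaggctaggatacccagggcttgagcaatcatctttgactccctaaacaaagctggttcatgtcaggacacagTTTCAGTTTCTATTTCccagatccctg
Ifit1: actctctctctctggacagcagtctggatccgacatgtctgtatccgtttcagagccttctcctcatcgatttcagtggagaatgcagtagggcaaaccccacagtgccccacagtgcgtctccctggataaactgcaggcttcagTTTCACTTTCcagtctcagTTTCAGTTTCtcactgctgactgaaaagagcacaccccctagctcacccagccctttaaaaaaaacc
Isg15: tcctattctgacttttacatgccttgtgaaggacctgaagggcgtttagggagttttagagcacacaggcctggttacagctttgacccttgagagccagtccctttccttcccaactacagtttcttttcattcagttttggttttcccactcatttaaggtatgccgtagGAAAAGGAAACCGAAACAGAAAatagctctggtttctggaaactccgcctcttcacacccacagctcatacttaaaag
For MHC class II the motif is the Y box, CTGATTGG, on both strands, found in 2 of 5 measured class II genes with an entry (H2-Ab1 and Cd74 have none) and in 1271 of the 27025 genes (4.7%). The windows are chr17:34287824-34288073 (minus) for H2-Aa and chr17:34305617-34305866 (plus) for H2-Eb1.
H2-Aa: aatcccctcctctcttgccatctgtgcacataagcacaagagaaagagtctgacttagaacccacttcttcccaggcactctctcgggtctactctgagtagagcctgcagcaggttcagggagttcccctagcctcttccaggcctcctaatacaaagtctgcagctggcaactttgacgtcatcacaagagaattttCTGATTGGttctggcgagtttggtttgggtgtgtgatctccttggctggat
H2-Eb1: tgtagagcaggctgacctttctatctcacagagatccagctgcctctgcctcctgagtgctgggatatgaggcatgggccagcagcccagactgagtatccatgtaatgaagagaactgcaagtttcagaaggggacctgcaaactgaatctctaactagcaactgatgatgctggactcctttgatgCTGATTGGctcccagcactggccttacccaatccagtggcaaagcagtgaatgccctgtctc
A match describes these letters and does not show that a factor binds there.

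Secreted defence proteins of hepatocytes moved in both directions. Of 25 acute phase genes 9 were higher and 10 lower (median difference near 0), where corticosterone alone called 13 higher and 4 lower, and the direct test between them called 11 lower. Without the Cpa1-rich untreated libraries the count was 11 higher and 4 lower. Serpina3n, a protease inhibitor, rose by 1.30 ± 0.15 (adjusted p = 6.21e-10), and haptoglobin (Hp), which binds free haemoglobin, by 0.96 ± 0.17 (adjusted p = 6.89e-06). Saa1 (chromosome 7, 46740497 to 46742980), an apolipoprotein of acute inflammation, ran from 24.1 to 807 CPM (median 41.2) in untreated and from 2.59 to 81.2 CPM (median 5.88) in combined-treatment livers. Its change of -3.67 ± 0.70 (adjusted p = 2.59e-05) was -4.59 without replicate 41, -2.69 without untreated replicate 9, which held the 807 CPM, and -1.99 without the Cpa1-rich libraries. Saa2, whose reads may be shared with Saa1, gave -5.09 ± 0.72 (adjusted p = 9.76e-08), and -5.97, -3.81 and -3.22 in the same 3 fits. With corticosterone alone Saa1 was not called (0.21, adjusted p = 0.828). The lipocalin Lcn2, a siderophore-binding protein, rose by 3.55 ± 0.65 (adjusted p = 1.32e-05), or by 2.22 without replicate 41 and 4.53 without the Cpa1-rich libraries. Orm2 and Orm3, plasma glycoproteins of 1 family, gave opposite calls (-1.17 ± 0.38, adjusted p = 0.00975, and 0.96 ± 0.36, adjusted p = 0.0256), of which the first was lost without untreated replicate 9 (-0.78, adjusted p = 0.0828) and without the Cpa1-rich libraries (-0.19, adjusted p = 0.706), and the second without untreated replicate 1, 3, 9 or 11. Of 24 complement genes 16 were lower and 2 higher (median -0.43). C4b (chromosome 17, 34728380 to 34743882), a central component of the classical pathway, fell from a range of 214 to 389 CPM (median 293) to a range of 81.3 to 159 CPM (median 125) (-1.25 ± 0.12, adjusted p = 7.13e-12), without overlap. The mannose-binding lectin Mbl2 rose from a range of 258 to 480.4 CPM (median 414) to a range of 491 to 1144 CPM (median 875), by 1.13 ± 0.13 (adjusted p = 4.42e-10), beside -0.26 (adjusted p = 0.0817) with corticosterone alone. Hamp2, a relative of the iron hormone hepcidin, fell (-3.75 ± 0.43, adjusted p = 5.49e-10), from a range of 31.5 to 109.7 CPM (median 54.2) to a range of 0.979 to 10.1 CPM (median 3.61).

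Lists of bile acid, zonation, growth, iron and other genes are given next, where 22.2% of all genes were higher and 21.4% lower. Of 15 bile acid and canalicular transporters 6 were higher, beside 4 higher and 6 lower with corticosterone alone. Among the 6, Abcc2 (0.17, adjusted p = 0.0476) lost its call in most other fits, those with DESeq2 and RLE size factors included. Without the Cpa1-rich libraries 5 were higher, and the list median went from 0.16 to -0.02. Slc10a1, which takes bile acids up from blood, rose by 0.88 ± 0.12 (adjusted p = 7.04e-08), and Abcb4, which exports phosphatidylcholine into bile, by 0.67 ± 0.12 (adjusted p = 1.23e-05). Of 14 genes of bile acid synthesis 5 were higher and 3 lower, among the higher the bile acid receptor Nr1h4 at 0.75 ± 0.07 (adjusted p = 2.42e-12). Of 18 pericentral hepatocyte genes 5 were higher and 8 lower, and of 12 periportal ones 3 and 4. The Wnt target Lgr5, a receptor of pericentral cells, stood at -1.04 ± 0.19 (adjusted p = 1.51e-05) and the Wnt target Axin2, a scaffold that limits the pathway, at 0.86 ± 0.15 (adjusted p = 9.78e-06). E-cadherin (Cdh1), the adhesion protein of periportal cells, fell (-1.56 ± 0.25, adjusted p = 1.11e-06). Of 21 cell cycle genes 6 were higher and 6 lower, with 4 and 10 without replicate 41 and 4 and 3 without the Cpa1-rich libraries. Rrm2, a subunit of ribonucleotide reductase, rose by 2.60 ± 0.21 (adjusted p = 1.36e-14), while the replication helicase subunit Mcm3 fell (-1.16 ± 0.23, adjusted p = 5.79e-05). Of 37 genes of oxidative phosphorylation 12 were higher, 1 lower and 24 neither (median 0.16), with 16 higher without replicate 41, 7 without the Cpa1-rich libraries and 9 without the mouse labelled diabetic. Of 21 hepatokines, hormones and carriers released by liver, 10 were higher and 7 lower (median 0.34, or 0.13 without the mouse labelled diabetic). Tsku, a secreted leucine-rich protein, ran from 5.92 to 40.9 CPM (median 16.1) in untreated and from 43.4 to 113 CPM (median 86.8) in combined-treatment livers (2.31 ± 0.24, adjusted p = 3.82e-11), and Enho, which encodes adropin, fell (-1.52 ± 0.25, adjusted p = 2.07e-06). Of 16 iron and metallothionein genes 8 were higher and 1, Hamp2, lower, and the ferritin heavy chain Fth1 rose by 0.68 ± 0.11 (adjusted p = 9.62e-07). Of 21 coagulation genes 9 were lower and 1, factor IX (F9), higher (0.54 ± 0.08, adjusted p = 6.75e-08). Of 5 genes best known from adipocytes, Car3 (-2.83 ± 0.28, adjusted p = 1.44e-11) and Cfd (-3.50 ± 0.61, adjusted p = 4.65e-06) were lower, Fabp4 higher (0.69 ± 0.16, adjusted p = 0.000389), and Adipoq was not called.

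Circadian clock genes shifted. Of 19 measured, 12 were higher and 3 lower (median 0.49), beside 10 and 1 with corticosterone and 6 and 3 with atglistatin alone. Ciart, a repressor within the clock, ran from 0.149 to 1.47 CPM (median 0.400) in untreated and from 1.36 to 9.22 CPM (median 4.36) in combined-treatment livers, by 3.08 ± 0.54 (adjusted p = 5.64e-06). Per1, a clock gene that glucocorticoids also induce, rose by 1.15 ± 0.26 (adjusted p = 0.00025). The labels give no time of collection, and its part in these values was not tested. Immediate early genes, which respond within minutes to stimuli, were 8 lower and 2 higher of 19. Egr1, a zinc finger factor, ran from 13.4 to 216 CPM (median 42.4) in untreated and from 0.418 to 28.9 CPM (median 1.03) in combined-treatment livers, and its change of -4.22 ± 0.57 (adjusted p = 2.79e-08) was -5.79 without replicate 41. The orphan receptor Nr4a1 fell (-3.44 ± 0.50, adjusted p = 1.30e-07), or by 2.61 without untreated replicate 4. Of 26 chaperones and genes of endoplasmic reticulum stress, 21 were not called, and 6 were higher without the Cpa1-rich libraries against 3 with them. Dnajb1, a heat shock co-chaperone, was called lower (-1.77 ± 0.45, adjusted p = 0.00116), but its direction rested on untreated replicate 10, and it was higher without that library (0.46, adjusted p = 0.0375).

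Some genes were called under combined treatment and under neither single treatment. There were 841 such genes with a mean of at least 5 CPM over the 24 libraries, where 5533 of all 12688 genes tested were called under combined treatment. Genes of at least 5 CPM were not counted separately, nor were those called under a single treatment alone. The 841 therefore give no share and do not mark a group particular to the combination. The 8 with the largest change were Phlda3, Saa1, Dmbt1, Ddit4l, Cyp4a31, Cyp4a12a, Cyp4a12b and Gm22748. Passing in 1 comparison and missing in another does not show a difference, so the differences from each single treatment are given for all 8, as a description of genes that these contrasts picked. Ddit4l (chromosome 3, 137621612 to 137628333), an inhibitor of mTORC1 signalling, lay between 1.02 and 1.94 CPM (median 1.47) in untreated and between 5.77 and 15.5 CPM (median 9.33) in combined-treatment livers, a rise of 2.56 ± 0.18 (adjusted p = 3.29e-16) without overlap. It passed against corticosterone alone (2.66, adjusted p = 3.87e-18) and against atglistatin alone (2.19, adjusted p = 2.36e-14). Phlda3 passed both as well (4.10, adjusted p = 2.22e-22, and 3.86, adjusted p = 2.44e-19), as did the small gene model Gm22748 (1.38, adjusted p = 0.000736, and 1.43, adjusted p = 0.000439). Cyp4a12a, a male-biased fatty acid hydroxylase, fell from a range of 419 to 701 CPM (median 584) to a range of 10.1 to 396 CPM (median 171) (-1.59 ± 0.31, adjusted p = 4.62e-05). It passed against corticosterone alone (-0.99, adjusted p = 0.0187) and not against atglistatin alone (-0.54, adjusted p = 0.18), and the same held for Cyp4a12b (-1.98, adjusted p = 9.92e-06, and -0.52, adjusted p = 0.23), whose reads may be shared with it. Cyp4a31 stood at 1.84 ± 0.48 (adjusted p = 0.00161), and at 0.75 (adjusted p = 0.0396) without replicate 41, and it did not pass against corticosterone alone (0.89, adjusted p = 0.155) or atglistatin alone (0.46, adjusted p = 0.434). Dmbt1, a mucosal scavenger protein, stood at -3.43 ± 1.09 (adjusted p = 0.00874), or at -4.17 without combined-treatment replicate 38, and all 14 of its values lay within the untreated range. It did not pass against corticosterone alone (-2.99, adjusted p = 0.0513) and passed against atglistatin alone (-2.77, adjusted p = 0.0447). Saa1 passed against both (-3.87, adjusted p = 5.43e-05, and -1.77, adjusted p = 0.0345).

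Further genes with the largest rises had no list of their own. Obp2a, an odorant-binding lipocalin, ran from 1.62 to 5.64 CPM (median 3.46) in untreated and from 76.4 to 859 CPM (median 157) in combined-treatment livers, by 5.94 ± 0.43 (adjusted p = 5.93e-16). Myom3, a sarcomere protein of muscle, rose by 5.37 ± 0.32 (adjusted p = 1.03e-18), and the unnamed genes 1810053B23Rik and E030018B13Rik by 6.76 ± 0.51 (adjusted p = 2.61e-15) and 4.87 ± 0.37 (adjusted p = 2.00e-15). The change of 1810053B23Rik was 7.37 without untreated replicate 12, and that of E030018B13Rik 5.56 without the Cpa1-rich libraries. In all 4 every combined-treatment library lay above every untreated one, and corticosterone alone gave 6.81, 5.91, 6.48 and 5.73. The strand used in counting is not given in the sources used here, so reads of overlapping or antisense genes cannot be told apart.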

How the data were processed

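Liver RNA of 48 mice was measured by QuantSeq 3′ sequencing with 50-base reads, per the labels' protocols, so most reads come from the 3′ end of a transcript. The deposited table holds the authors' raw counts per gene for 14251 genes, and the submitters' processing notes name GRCm38, R 3.6 and DESeq2 1.24.0. What aligned and counted the reads, with which annotation and strand, is not given in the sources used here. Gene symbols came from GENCODE M21 (14219 of 14251 identifiers matched, 32 did not), and coordinates are those of that annotation on GRCm38.

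Counts were filtered in edgeR 4.0.16 (R 4.3.3) with a minimum count of 10 and a minimum total of 15, which left 12688 genes, and scaled by TMM. A quasi-likelihood model was fitted to the 4 groups together, which share 1 estimate of the spread, and p-values were adjusted by Benjamini-Hochberg over all genes at a threshold of 0.05. A second edgeR test asked for a change above 1.5-fold. The label values of glucose and insulin went into a permutation test each, 2-sided, with 100000 resamples. Limma 3.58.1 and DESeq2 1.42.0 served as alternatives, and the fit was tested on simulated data. CPM are edgeR's counts scaled to a common TMM-adjusted total. Any pair of libraries of a group had a chi-square of at least 6.21 per degree of freedom, so each library was kept as its own replicate. 0 columns had no sample.

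The groups and the 50 gene lists were chosen with earlier results of these data known. Named genes were the 12 highest and 12 lowest changes among called genes with a mean of at least 5 CPM, the members of each list with the smallest p (at most 6), a set list of genes, the genes near untreated, and the 8 largest changes called under neither single treatment. Ifit1, Isg15, Tnfrsf10b, Btg2, Ercc5, Orm2, Orm3, Lcn2, Mup20, Gstp1 and the members named to complete small counts were chosen after their values were seen. Near-identical families (Mup, Saa, Cyp2c, Cyp3a, Cyp4a, Gstm) can share reads, and their single-gene values are uncertain. Some genes that the rule named are not reported here.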

Additional observations from a re-analysis of the deposited data

Results flagged for a closer look

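Among 70 quantities examined in the 10 untreated libraries, 16 had 1 library apart from the other 9 by Dixon's criterion (critical value 0.466). That value gives about 1 in 20 only for independent, normally distributed quantities. CPM and sums were used untransformed, and several quantities share the same library, so the 16 cannot be compared with that rate. Groups of 14 were not examined in this way. In every case the library apart was the highest.

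Untreated replicate 9 held 807.3 CPM of Saa1 (next 300.7), 448.5 CPM of Saa2 (next 110.6), 54.33 CPM of Cyp17a1 (next 29.87) and 1.703 CPM of Myom3 (next 0.8168). It also had the highest sum of cholangiocyte markers at 370.1 CPM (next 108.2), and it is 1 of the 3 libraries rich in Cpa1.

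Untreated replicate 10, also rich in Cpa1, held 216.5 CPM of Egr1 (next 71.63), 870.3 CPM of Igfbp1 (next 322.6) and a neutrophil marker sum of 30.74 CPM (next 10.56). The third library rich in Cpa1, replicate 15, had 7.417 CPM of Cyp4a31 (next 4.511).

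Untreated replicate 12 held 419.3 CPM of Gclc (next 320.4), 1.153 CPM of Fam107a (next 0.2653) and 0.8967 CPM of 1810053B23Rik (next 0.2653). Replicate 3 held 47.15 CPM of Cxcl9 (next 25.8) and 58.52 CPM of Dmbt1 (next 31.12). Replicate 2 had an erythroid sum of 2829 CPM (next 1811) and 11.57 CPM of Gm15638 (next 7.033).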

How the results depend on the processing

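Fed glucose was the main result that depended on 1 mouse: the difference of -11.54 (permutation test, adjusted p = 0.28) was -18.55 and passed (adjusted p = 0.00437) without the mouse labelled diabetic, and its values ran from -18.55 to -9.554 over the 24 fits that left out 1 mouse. Those fits gave 13.97 to 16.73 for insulin, 5121 to 5639 for all called genes, 2312 to 2858 for genes called higher, 2600 to 2932 for genes called lower, 1019 to 1224 for genes past 1.5-fold, 286 to 344 of them higher and 717 to 894 lower. With all mice kept, the difference in medians was -19 for glucose (permutation test, adjusted p = 0.0505) and 11.45 for insulin (permutation test, adjusted p = 0.035). With RLE size factors 5495 genes were called, with DESeq2 5901, with limma voom 6204, without a filter 5788 and without the Cpa1-rich libraries 5062. Of the named genes, 293 of 303 kept direction and call when the compared groups were fitted alone, and 298 of 316 without the Cpa1-rich libraries. Dnajb1 (-1.77) reversed to 0.44 with DESeq2, 0.27 with limma voom, 0.62 without the Cpa1-rich libraries and 0.46 without untreated replicate 10, and Hspa1b (-1.36) to 0.42 without the Cpa1-rich libraries and 0.091 without untreated replicate 10, while the fits that left out 1 library ran from -1.93 to 0.46 and from -1.54 to 0.091. The cause was not tested. No paired analysis was possible because the compared groups share no replicate number. Genes near 0 CPM in most untreated livers are limited by depth, and their fold changes depend on few counts. Such genes could pass the count filter through treated groups alone, so their direction was partly set by the filter. Sult1e1, Eda2r, Tnfrsf10b, Phlda3, Fam107a and 1810053B23Rik are among them.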
